A study of Mus musculus with 3 samples.

Results

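Plasmacytoid dendritic cells of mouse melanoma grafts were taken from single-cell RNA counts as the cells with at least 2 counts of Siglech, fewer than 10 counts of C1qa, C1qb and C1qc together, at most 1 count of Cd3d, Cd3e and Cd3g together and at most 1 count of Ncr1 and Klrb1c together. Siglech encodes a sialic acid-binding receptor of mouse plasmacytoid dendritic cells, and the other genes mark macrophages, T cells and natural killer cells. Of 43730 cells, 82 met this rule, 45 in the library of 4-month-old mice, 17 in that of 12-month-old mice and 20 in that of 20-month-old mice. All 3 groups carried grafts of YUMM1.7, a transplantable mouse melanoma line, from 500000 cells placed under the skin. From 7 mice of each age, tumours were collected at day 18 and live CD45+ cells were sorted and made into 1 PIP-seq 3′ library per age. No genotype, strain or treatment beyond the graft is used to tell the groups apart, and whether cells of the 7 mice were pooled is not given in the sources used here. With 1 library per age, no difference between ages has a replicate check, and intervals are 95% intervals that cover counting error only.

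Plasmacytoid dendritic cells are the dendritic cells that specialise in type I interferon. They take up nucleic acids into endosomes, sense them through Tlr7 and Tlr9, and signal through Myd88 and Irf7. The transcription factor Tcf4, with Spib, Runx2 and Bcl11a, sets up and keeps their identity, while Id2 and Batf3 belong to conventional dendritic cells. In tumours these cells are often described as poor producers of interferon.

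In order of age, 14393, 14653 and 14684 cells were deposited, with totals of 110371225, 127850782 and 119873564 counts. No cell had fewer than 3555 counts. Pairs of libraries shared 2 to 4 cell barcodes, none of them of a cell that met the rule. The 82 cells held 447821 counts, with a median of 4855, 5658 and 5021 counts per cell in the 3 libraries. Scrublet, which scores likely doublets, placed 9 of the 82 among the 6% of cells with the highest scores of their library. Levels below are CPM, counts per 1000000 counts summed over the cells of a gate. The level in 12338 T cells (at least 15 Cd3d, Cd3e and Cd3g counts, no Siglech) stands beside them as a reference. It can reflect free RNA only for genes that T cells do not express, and genes such as Gzmb and Ifi27l2a were high in T cells. C1q-high cells, with at least 30 counts of C1qa, C1qb and C1qc and no Siglech, serve as a further reference.

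In GRCm38, Siglech (ENSMUSG00000051504.18) spans bases 55768178 to 55778925 of chromosome 7 and reads from the plus strand. The promoters of Siglech and of 3 genes that were high in the gate are shown because Tcf4 is an E-box-binding factor: Ccr9, Klk1 and Cd300c encode a chemokine receptor, a kallikrein protease and an Ig-like receptor. Each window runs from 250 to 51 bases before the RefSeq gene start (GRCm38.p6) and overlaps no exon annotated in GENCODE M21. Capitals mark the E-box letters searched, CAGCTG and CAGGTG, on both strands (CAGGTG reads CACCTG on the other strand, and CAGCTG reads the same). The windows are chr7:55767934-55768133 (plus strand) for Siglech, chr9:123766961-123767160 (plus strand) for Ccr9, chr7:44225110-44225309 (plus strand) for Klk1 and chr11:114960558-114960757 (minus strand) for Cd300c.
Siglech: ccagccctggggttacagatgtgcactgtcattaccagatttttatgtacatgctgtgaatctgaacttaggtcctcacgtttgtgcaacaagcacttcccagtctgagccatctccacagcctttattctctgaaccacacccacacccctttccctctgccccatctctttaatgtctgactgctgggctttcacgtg
Ccr9: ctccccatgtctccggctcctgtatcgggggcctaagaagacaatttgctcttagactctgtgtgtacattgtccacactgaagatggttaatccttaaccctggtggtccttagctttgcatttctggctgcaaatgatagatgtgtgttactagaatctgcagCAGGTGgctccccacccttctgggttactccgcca
Klk1: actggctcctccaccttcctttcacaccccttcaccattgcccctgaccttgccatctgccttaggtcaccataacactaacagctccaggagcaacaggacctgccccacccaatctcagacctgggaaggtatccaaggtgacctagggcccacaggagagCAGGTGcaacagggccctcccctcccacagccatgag
Cd300c: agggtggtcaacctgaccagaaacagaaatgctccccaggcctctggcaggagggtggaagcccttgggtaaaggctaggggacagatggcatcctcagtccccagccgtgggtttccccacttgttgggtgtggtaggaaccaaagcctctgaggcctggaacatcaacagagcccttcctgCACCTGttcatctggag

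The Siglech window held neither letter string, and the windows of Ccr9, Klk1 and Cd300c held CAGGTG 1 time each. Over all 32851 RefSeq promoter windows of this length, 23.1% held at least 1 of the strings. Among 446 windows of 317 genes that were higher in the Siglech gate than in both conventional dendritic cell gates described below (of 424 such genes, the others having no window), the share was 23.8%. The strings were thus about as frequent there as in any promoter window.

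The rule used Siglech and the lineage genes, so their levels describe the choice and are not a result. Siglech stood at 2220, 2139 and 2397 CPM at 4, 12 and 20 months, with 2 to 29 counts per cell and a median of 11.5. Just inside the threshold, 5 cells had 2 Siglech counts and 2 cells had 3. Just outside it, 45 cells had 1 count and met the other limits. In these 45 cells Tcf4 was at 513 CPM, Ccr9 at 45.8 and Ly6d at 6.54, against 1600, 213 and 26.7 in the 5 cells with 2 counts.

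The markers given beside Siglech, which the rule did not use, did not go against the label. They were given together with the label, and other genes follow below. Tcf4, the lineage-determining E protein, was at 3273, 3954 and 3492 CPM at 4, 12 and 20 months and had 2 to 46 counts in every one of the 82 cells. The T cell level was 19.0. Bst2 (tetherin), a surface protein of these cells that interferon induces elsewhere, was at 941, 1024 and 1133 CPM, against 469 in T cells. Irf8, a transcription factor shared with cDC1 cells, was at 1127, 852 and 1029 CPM, against 48.9. The 3 libraries lay close together for each of these genes, and all lay above the T cell level.

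Of the 4 markers given beside Siglech (Bst2, Tcf4, Ly6d and Irf8), all 82 cells held at least 2, 79 held at least 3 and 53 held all 4. Ly6d, a Ly6-family surface protein shared with early lymphoid cells, accounted for most of the gaps. It was found in 54 of 82 cells (65.9%, exact binomial interval 54.6 to 76.0), with up to 25 counts in a cell, against 1.77% of T cells, whose median depth was 6212.5 counts against 5069.5. With every cell thinned to 3000 counts the shares were 58.5% and 0.738%. All 16 further markers of the list for these cells were above the T cell level.

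Lists of markers of other cell types differed in how they compared with T cells. Summed macrophage markers came to 1034 to 1510 CPM over the 3 libraries, against 1122 to 1250 in T cells and 8152 or more in C1q-high cells. The B cell markers Ms4a1, Cd79a and Fcmr were at 0, as were Jchain and Sdc1 of plasma cells, Xcr1 of cDC1 cells, Mrc1 of macrophages and Mlana, Pmel, Dct and Sox10 of melanoma cells. Other markers of the same lists were not at 0: the summed melanoma markers came to 35.7 CPM against 8.34 in T cells, from Tyr and Mitf, the plasma cell markers to 26.8 against 8.76, from Mzb1, and the B cell markers to 8.93 against 10.8, with Pax5 above the T cell level. Markers of conventional dendritic cells stood well above T cells. The 7 cDC2 markers were all above and summed to 895 CPM against 212, with Clec10a (a lectin) at 353 against 2.86, and the cDC1 markers, Irf8 among them, summed to 1302 against 84.2, with Clec9a at 147 against 0.756. The fibroblast or endothelial list summed to 259 CPM against 35.5, mainly from Pecam1 (154 against 21.7) and Cdh5 (100 against 11.2). All 4 markers of transitional dendritic cells were above the T cell level, and the counts for the other lists were 4 of 9 for macrophages, 3 of 6 for monocytes, 5 of 7 for cDC1 cells, 1 of 5 for mature dendritic cells, 2 of 5 for neutrophils, 3 of 6 for natural killer cells, 1 of 8 for T cells, 1 of 6 for B cells, 1 of 4 for plasma cells, 2 of 6 for melanoma cells, 3 of 5 for fibroblasts or endothelial cells, 1 of 4 for ILC2 cells and 0 of 4 for mast cells or basophils. The part of such RNA in the results below was not tested.

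**Figure D1:**
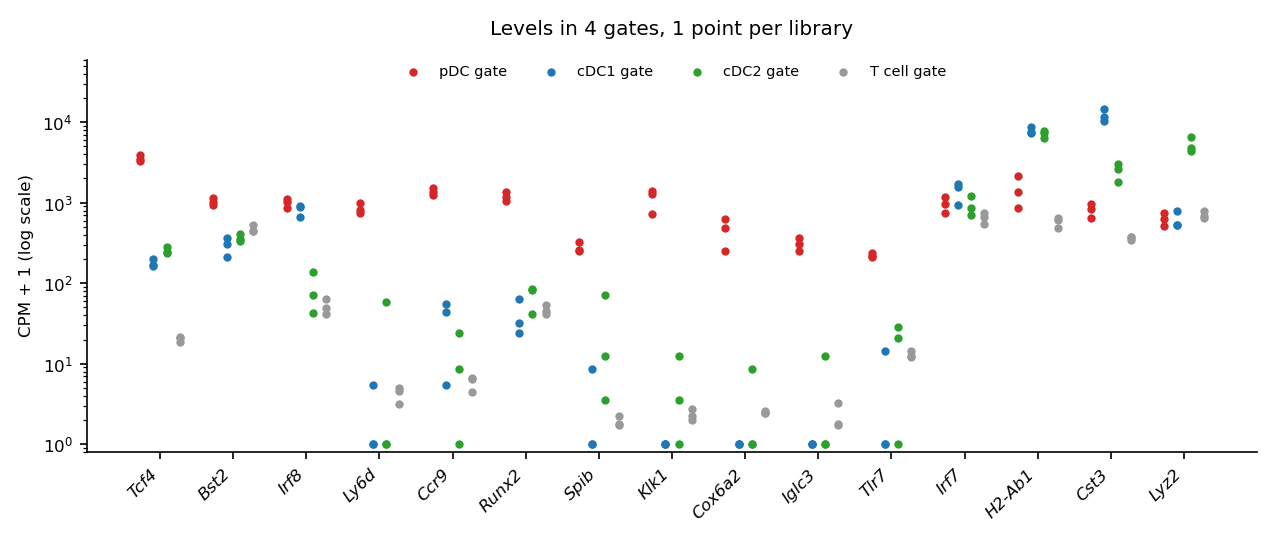
Levels of 15 genes in the Siglech (pDC), cDC1, cDC2 and T cell gates, as CPM + 1 on a log axis, 1 point per library. For Tcf4, Ccr9 and Runx2 the 3 points of the pDC gate lie above all points of the other gates, and for H2-Ab1 and Cst3 they lie below those of both cDC gates.

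How many such cells an age held depended on the Cd3 limit. By the rule the gate took 0.313% of the 4-month cells (exact binomial interval 0.228 to 0.418), 0.116% of the 12-month cells (interval 0.0676 to 0.186) and 0.136% of the 20-month cells (interval 0.0832 to 0.210). Set against the 4-month share, the 12-month share differed by -0.197 percentage points (Newcombe interval -0.311 to -0.0914) and the 20-month share by -0.176 points (interval -0.292 to -0.0682). Before the lineage limits, however, 95, 84 and 81 cells had at least 2 Siglech counts. The limits kept 47.4%, 20.2% and 24.7% of them.

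The Cd3 limit removed 174 of the 260 cells with at least 2 Siglech counts, 146 of them on that limit alone, while the C1q limit removed 8 and the natural killer limit 26. The removed cells had a median of 3, 4 and 3 Cd3 counts. C1q-high cells had 2, 5 and 3, and T cells 22, 24 and 22. For Cd3 the removed cells were at 413, 779 and 717 CPM, against 289, 519 and 474 in C1q-high cells. T cells had 3768, 3609 and 3442 CPM. The Cd3 limit picked most of the removed cells, and the T cell gate also used Cd3, while the C1q-high gate did not. These Cd3 levels follow in part from that choice, and the source of Cd3 RNA in the removed cells was not tested. Of the 178 removed cells, 163 had at least 5 Tcf4 counts, as had 80 of the 82 kept cells. As CPM, Tcf4 was lower in the removed cells, at 2408, 2218 and 2296 against 3273, 3954 and 3492 in the kept cells. The median totals of the removed cells were 7432, 7533 and 6226 counts, above the 4855, 5658 and 5021 of the kept cells. Among all cells of a library, whatever their Siglech count, 11.8%, 2.87% and 4.54% passed the 3 lineage limits. The lineage limits thus passed fewer cells of any kind in the 2 older libraries, and the part this had in the difference of shares was not tested beyond the wider limits that follow.

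With every lineage limit raised to below 10 counts, a choice made after the data had been seen, 240 cells were kept, 91, 78 and 71 by age. Their shares were 0.632% (0.509 to 0.776), 0.532% (0.421 to 0.664) and 0.484% (0.378 to 0.610). The 12-month share then differed from the 4-month share by -0.0999 points (interval -0.278 to 0.0760) and the 20-month share by -0.149 points (interval -0.323 to 0.0231), and both intervals include 0. With cells thinned to 3000 counts before the rule was applied, the differences were -0.213 (-0.352 to -0.0795) and -0.186 points (-0.327 to -0.0498). Values under the rule and under the wider limits therefore differ in whether 4 months stands apart.

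**Figure D2:**
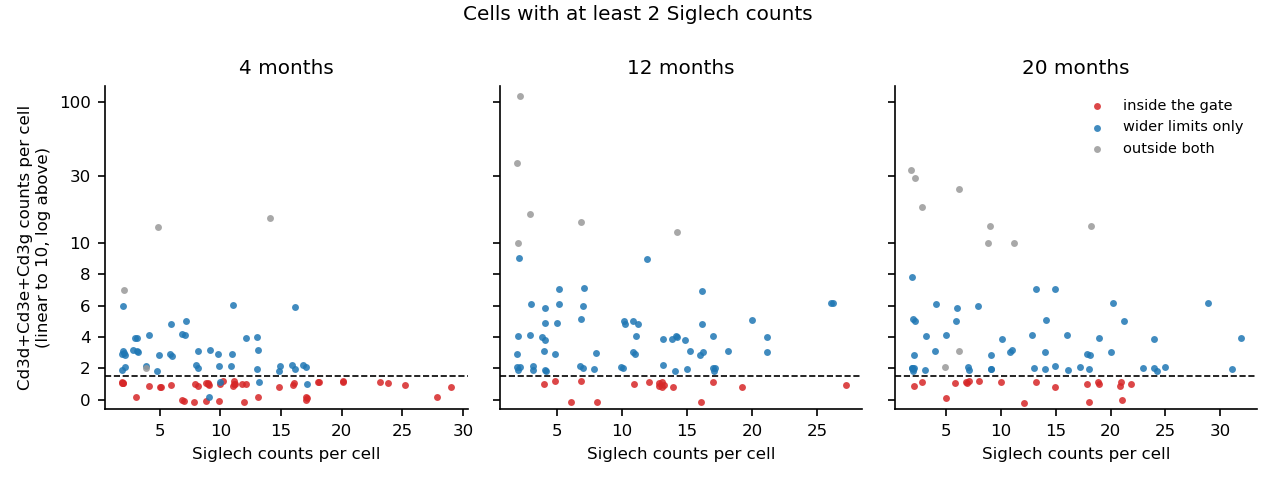
Siglech counts against the sum of Cd3d, Cd3e and Cd3g counts for each of the 260 cells with at least 2 Siglech counts, by age (vertical axis linear to 10 and log above, points jittered). Red cells meet the rule, and the dashed line marks its Cd3 limit. Most cells above the line lie below 10 Cd3 counts (blue, 158 cells kept by the wider limits only).

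**Figure D3:**
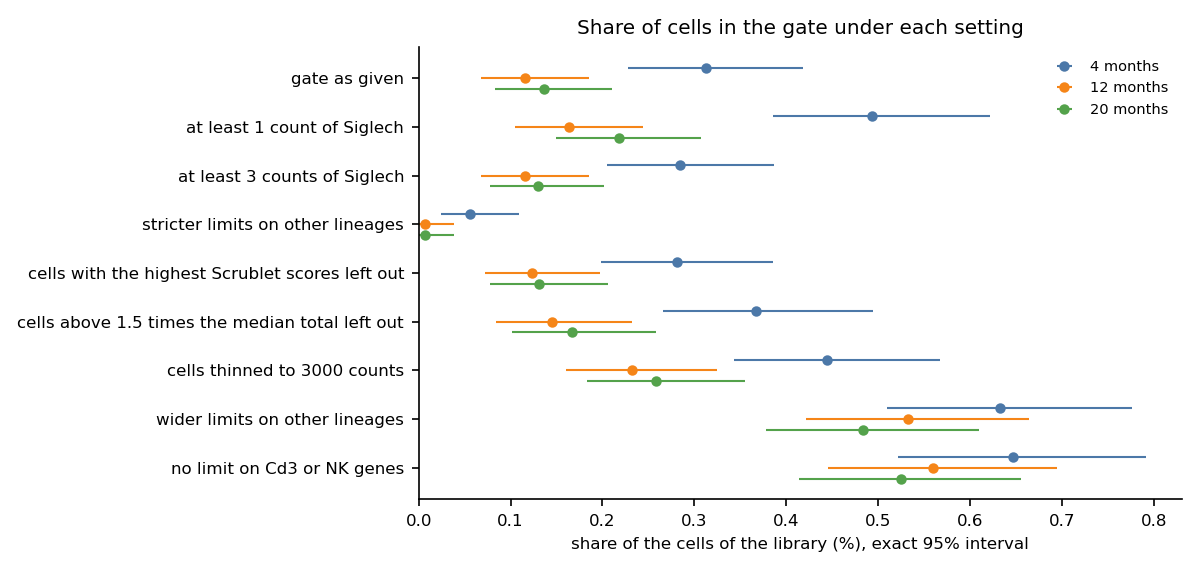
Share of the cells of each library in the gate under the rule and 8 other settings, with exact 95% intervals. The 4-month share lies highest throughout, and the intervals of all 3 ages overlap under the stricter limits and under the last 2 settings.

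To see which genes set the cells apart, counts were summed per library and set against 2 gates of conventional dendritic cells from the same libraries. The cDC1 gate (cells with Xcr1 or Clec9a, 25, 6 and 16 cells) holds cross-presenting cells, and the cDC2 gate (cells with Cd209a, 53, 9 and 12 cells) holds cells that present to CD4 T cells. Both lack Siglech and meet the same lineage limits. The test was edgeR's quasi-likelihood test with library as a block and Benjamini-Hochberg adjustment over all genes tested. The 3 libraries differ in age, so p-values measure spread over ages and libraries together and not between replicates. Their size does not rest on the spread of each gene alone. Against cDC1 cells Lair1 had log2 3.90 (SE 0.28, edgeR adjusted p = 2.53e-13). Against cDC2 cells Lair1 had log2 3.18 (SE 0.24, edgeR adjusted p = 4.15e-37). The size of p-values is therefore not compared between the comparisons. The genes of the gates were given no test. Against cDC1 cells 547 of 2554 genes were higher (21.4%) and 432 lower (16.9%), and against cDC2 cells 631 of 2069 were higher (30.5%) and 564 lower (27.3%). DESeq2 called fewer, 277 and 164 against cDC1 cells and 386 and 223 against cDC2 cells. Leaving out the 4-month library, which held most of the cells, edgeR called 418 and 283 genes against cDC1 cells and 470 and 323 against cDC2 cells. Higher genes made up 52.8% of the calls against cDC2 cells in edgeR and 63.4% in DESeq2. The cDC2 gate was also rich in Lyz2, a gene of macrophages and monocytes (6037 CPM, against 627 in the Siglech gate and 688 in T cells), and the part of this in the second comparison was not tested.

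The lineage transcription factors divided by role. Tcf4 was higher than in cDC1 cells by 4.25 on the log2 scale (SE 0.18, edgeR adjusted p = 1.06e-18) and than in cDC2 cells by 3.78 (SE 0.16, edgeR adjusted p = 1.28e-116). Runx2, which acts in the exit of these cells from bone marrow, was at 1172, 1348 and 1048 CPM, against 32.3 in cDC1 and 52.3 in cDC2 cells. Spib, an Ets-family factor of B cells and plasmacytoid dendritic cells, was at 255, 253 and 321 CPM, against 2.48 and 12.6. Bcl11a, which acts upstream of Tcf4, was at 806, 1024 and 1227 CPM, against 59.6 and 155. In each case every library of the Siglech gate lay above both pooled cDC levels.

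Zeb2, a repressor of Id2, and Ikzf1 (Ikaros) were also called higher in both comparisons. Irf8 separated the Siglech gate from cDC2 cells (115 CPM, log2 3.30, SE 0.20) and did not pass the test against cDC1 cells (817 CPM, log2 0.35, SE 0.15, edgeR adjusted p = 0.0745). Id2, the inhibitor of E proteins, was at 173, 243 and 160 CPM, against 1391 in cDC1 and 298 in cDC2 cells, and was called lower in both. Batf3, a cDC1 factor, was found in 2 of the 82 cells and was lower than in cDC1 cells (log2 -3.80, SE 0.59). In all, 6 factors were higher and 2 lower of 11 tested against cDC1 cells, and 7 were higher and 1 lower of 9 tested against cDC2 cells. Over all genes tested, 21.4% were higher and 16.9% lower against cDC1 cells, and 30.5% and 27.3% against cDC2 cells. The factors were listed as known ones, and Spib, with 1 count in cDC1 cells, entered that test only through the Siglech gate. These counts are a description.

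Surface and secretory genes known from these cells were higher almost throughout, as their choice implies: 25 of 25 tested against cDC1 cells and 23 of 24 against cDC2 cells, from 27 listed. They were listed as known genes of these cells, and a gene that is low elsewhere enters the test only through this gate, so the counts are a description. Ccr9, the receptor for the gut chemokine Ccl25, was at 1529, 1237 and 1359 CPM, against 24.8 in cDC1, 9.02 in cDC2 and 5.08 in T cells, and 79 of 82 cells had a count. Pacsin1, an adaptor of endosomal traffic, was at 592, 689 and 613 CPM, against 9.94 and 10.8. Both genes had separate ranges in the Siglech gate and in every other gate.

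Cox6a2, a muscle-type subunit of cytochrome c oxidase, was at 633, 253 and 481 CPM. It had no count in cDC1 cells, which makes it at least 68.9-fold higher against a floor of 3 counts over that gate, and 3 counts in cDC2 cells. Klk1, a kallikrein, was at 719, 1389 and 1265 CPM and at least 134-fold higher than in cDC1 cells by the same floor, with 2 counts in cDC2 cells. At 12 months 89 of its 137 counts came from 1 cell, so the 12-month level rests largely on that cell. Klk1b27, a close relative in the same gene family, was at 94.6, 142 and 84.9 CPM, and how the counting split reads between such copies is not given, so Klk1 levels are uncertain to that extent. Lair1, an inhibitory collagen receptor, was at 641, 943 and 642 CPM, against 44.7 and 72.1. Cd7 was the exception among these genes, called lower than in cDC2 cells (266 against 386 CPM).

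Several of these genes were found in only part of the cells. Klk1 was found in 51 of 82 cells (62.2%, exact binomial interval 50.8 to 72.7), Cox6a2 in 49 (59.8%, 48.3 to 70.4) and Iglc3 in 46 (56.1%, 44.7 to 67.0), against 0.892%, 0.932% and 0.584% of T cells. Klk1 and Cox6a2 were found together in 38 cells, and 74.5% of cells with Klk1 had Cox6a2, against 35.5% of cells without it. For Ly6d the order was the reverse in the 82 cells, with Klk1 in 57.4% of cells with Ly6d and 71.4% of cells without it, but in the 240 cells of the wider gate the shares were 55.9% and 42.3%. Cells with and without Klk1 had median totals of 5060 and 5501 counts. These shares are descriptions of 82 cells from 3 libraries.

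Several genes shared with the B cell lineage were present, while Ms4a1, Cd79a and Fcmr were at 0. Iglc3, a light chain constant gene, was at 251, 304 and 359 CPM, with 0 counts in cDC1 cells (at least 38.7-fold higher in the Siglech gate) and 1 in cDC2 cells. Iglc2, its near copy, was at 61.7, 142 and 104 CPM, and reads of the pair can be hard to tell apart. Ighm, the constant gene of IgM, was at 822, 801 and 821 CPM, against 147 in cDC1, 144 in cDC2 and 158 in T cells. Dntt, the DNA polymerase that adds bases to V(D)J joints, was at 103, 71.0 and 104 CPM, with 0 counts in both cDC gates and 0.214 CPM in T cells. Rag1 and Rag2 were at 0. Of the 16 genes listed, 6 could be tested and all 6 (Spib, Bcl11a, Ighm, Ly6d, Iglc3 and Blnk) were higher in both comparisons, beside 21.4% and 30.5% of all genes tested. Iglc3, Ly6d, Spib and Blnk had at most 2 counts in cDC1 cells, so they entered that test only through the Siglech gate and could be called in 1 direction only, and the count is a description.

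Genes of nucleic acid sensing went both ways, and Tlr7 was among those that were higher. Tlr7, the receptor for single-stranded RNA, was at 218, 213 and 236 CPM, against 7.45 in cDC1, 18.0 in cDC2 and 11.9 in T cells (log2 4.77, SE 0.53, edgeR adjusted p = 5.25e-09 and log2 3.57, SE 0.41, edgeR adjusted p = 5.88e-17). Unc93b1, which carries these receptors to endosomes, was at 773, 852 and 783 CPM, against 432 and 370. Pld4, an endosomal nuclease, was at 867, 1004 and 897 CPM, against 271 and 288. Syk and Blnk, which signal below surface receptors of these cells, were also higher in both comparisons. Tlr7 had 3 counts in cDC1 cells and Blnk had 2. Both entered that test only through the Siglech gate and could be called in 1 direction only, so their calls against cDC1 cells are a description.

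Tlr9, the receptor for CpG DNA, was found in 1 of 82 cells (1.22%), no more than the 1.65% of T cells, so at this depth it could not be told from the T cell reference. Irf7, the factor behind the interferon response of these cells, was at 1184, 953 and 746 CPM and was lower than in cDC1 cells (1384 CPM, log2 -0.49, SE 0.14, edgeR adjusted p = 0.00675), with no call against cDC2 cells (1093 CPM, log2 0.04, SE 0.13). Irf5 was lower in both comparisons. Of 25 sensing genes, 8 were higher and 2 lower of 15 tested against cDC1 cells, and 5 were higher (Tlr7, Unc93b1, Pld4, Syk and Blnk) and 4 lower of 13 tested against cDC2 cells. The list medians were 0.88 and 0.04 on the log2 scale, and against cDC2 cells both counts lie near the 30.5% and 27.3% of all genes. Against cDC1 cells, 21.4% of all genes tested were higher and 16.9% lower.

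No type I or III interferon RNA was found. The 20 interferon genes had 0 counts in the 82 cells, which allows a share of up to 3.66% of cells with a count, and 0 counts in the 240 cells of the wider gate, which allows up to 1.25%. Over all 43730 cells they had 159 counts in 137 cells, 81 of them of Ifnz and 44 of Ifnb1. Interferon response genes leaned lower than in conventional dendritic cells. Against cDC1 cells 10 of 27 tested were lower and 2 higher (median log2 -0.34, all genes tested 0.00), and against cDC2 cells 19 of 25 were lower and 4 higher (median -0.90, all genes tested -0.02). Over all genes tested, 16.9% were lower and 21.4% higher against cDC1 cells, and 27.3% and 30.5% against cDC2 cells. Isg15, a ubiquitin-like protein, was at 687, 304 and 378 CPM, against 959 and 1361. Rsad2 (viperin) was at 140, 81.1 and 236 CPM, against 318 and 757. Ifi27l2a ran the other way, with 1279, 1227 and 1274 CPM against 566 and 927, although T cells had 2386.

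Antigen presentation and costimulation were lower. H2-Ab1, the beta chain of I-A, was at 1365, 852 and 2133 CPM, against 7510 in cDC1, 6653 in cDC2 and 595 in T cells. Cd74, the invariant chain, was at 3967, 3112 and 5493 CPM, against 15099 and 19363. At 20 months 2 of the 20 cells held 39.9% of the counts of H2-Aa, H2-Ab1, H2-Eb1 and Cd74. Without these 2 cells the genes came to 7626 CPM at 20 months in place of 11222, beside 7672 at 4 months and 5840 at 12 months. Of 12 genes of the MHC class II list, 7 of 9 tested were lower than in cDC1 cells and 9 of 10 than in cDC2 cells, with none higher. Cd83 (24.6 CPM, against 397 and 242) and Cd86 (114, against 390 and 496), costimulatory proteins of mature dendritic cells, were lower in both comparisons. Among 18 genes of activation, 4 of 8 tested were lower and 2 higher (Nfkb1 and Ccl4) against cDC1 cells, and 6 of 8 were lower against cDC2 cells. Over all genes tested, 16.9% were lower and 21.4% higher against cDC1 cells, and 27.3% and 30.5% against cDC2 cells. The 2 of 8 higher against cDC1 cells lie near that share.

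Receptors for cytokines leaned higher. Csf2rb2, a beta chain of the IL-3 receptor, was at 580, 618 and 680 CPM, against 17.4 in cDC1 and 57.7 in cDC2 cells, and was higher in both (log2 5.10, SE 0.34 and 3.38, SE 0.27). Il7r was at 189, 385 and 368 CPM, against 9.94 and 19.8, with 90.7 in T cells. Ifnar1 and Ifnar2, which form the type I interferon receptor, were higher in both comparisons, as were Tgfbr1 and Tgfbr2, whereas Csf2ra, of the GM-CSF receptor, was lower in both. Flt3, the receptor for the growth factor of all dendritic cells, was higher than in cDC2 cells and not called against cDC1 cells (190 against 231 CPM, log2 -0.36, SE 0.26). Of 15 listed, 7 were higher and 1 lower of 11 tested against cDC1 cells, and 8 were higher and 3 lower of 12 against cDC2 cells. Over all genes tested, 21.4% were higher and 16.9% lower against cDC1 cells, and 30.5% and 27.3% against cDC2 cells. The 3 of 12 lower lie near that share. Genes with few counts in cDC1 cells, such as Il7r, entered that test mainly through the Siglech gate, so the counts are a description.

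Among inhibitory genes, Lag3, an inhibitory receptor that binds MHC class II, was at 251, 253 and 368 CPM, against 27.3 and 14.4, with 90.2 in T cells. Cd4, a coreceptor that mouse plasmacytoid dendritic cells also carry, was at 169, 132 and 189 CPM, against 4.97 in cDC1, 3.61 in cDC2 and 22.3 in T cells. Gzmb did not pass either test (509 CPM, against 450 and 440) and stood far below the 3252 CPM of T cells. Ido1 was at 0. Of 15 genes of chemokine receptors and homing, 5 were higher and 2 lower of 9 tested against cDC1 cells and 4 higher and 3 lower of 10 against cDC2 cells. Of 13 tolerance and inhibitory genes, 2 were higher and 1 lower of 4 tested against cDC1 cells and 2 higher and 2 lower of 5 against cDC2 cells. Against cDC2 cells these counts lie near the 30.5% and 27.3% of all genes tested. Against cDC1 cells the shares of all genes tested were 21.4% higher and 16.9% lower, and with so few genes tested the counts are a description.

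The endoplasmic reticulum list held few calls, with 3 of 16 tested higher than in cDC1 cells and 5 higher and 1 lower of 15 against cDC2 cells, near the background shares given above. Xbp1, the factor of the unfolded protein response that builds secretory cells, was at 280, 284 and 236 CPM, against 82.0 and 130, and was higher in both, as was Tram1, of the translocation channel. Early response genes were mostly lower, 8 of 10 tested against cDC1 and 8 of 9 against cDC2 cells, beside 16.9% and 27.3% of all genes tested. Ier2 was at 16.4, 40.6 and 0 CPM against 152 and 184. Of the cell division genes, Stmn1, Hmgb2 and Tubb5 were lower than in cDC1 cells, and none of the 3 tested was called against cDC2 cells. Mki67, a marker of cycling cells, was at 8.93 CPM, below the 28.8 of T cells.

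**Figure D4:**
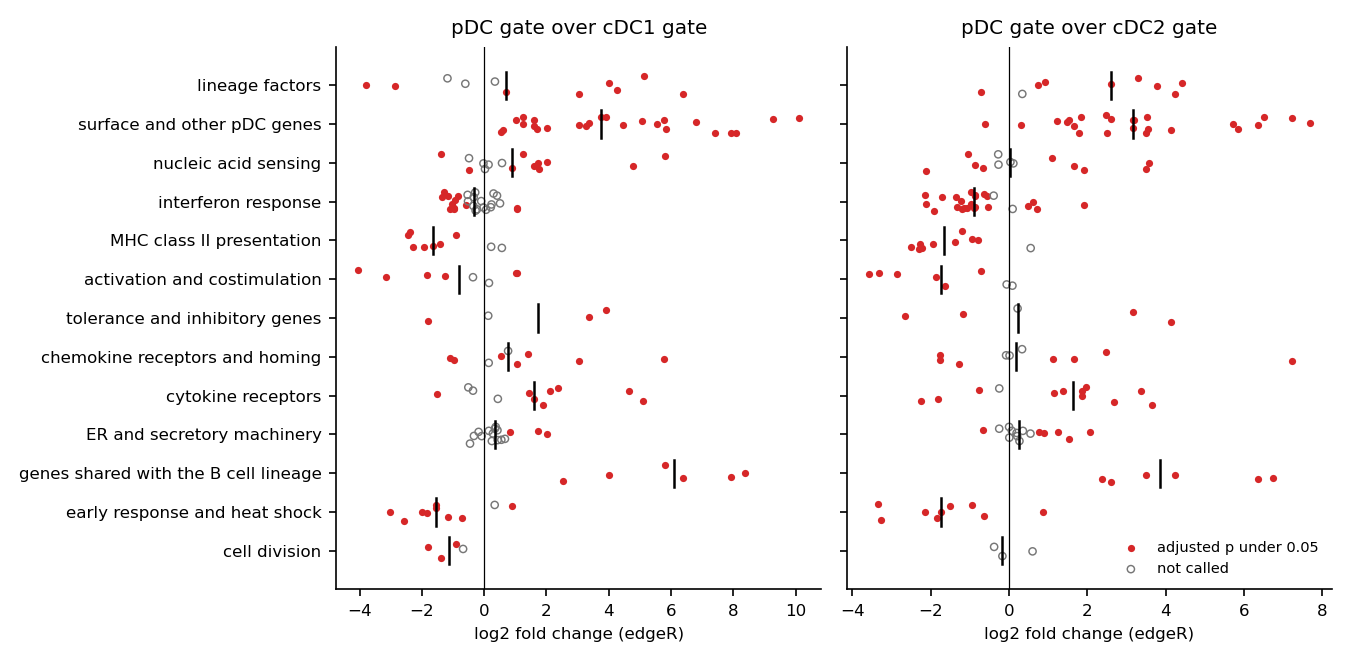
Log2 fold change of each tested gene of 13 lists, Siglech (pDC) gate over the cDC1 gate (left) and over the cDC2 gate (right), from edgeR. Filled points have an adjusted p under 0.05, black bars are list medians. The MHC class II medians lie at -1.65 and -1.67, and the medians of the genes shared with the B cell lineage at 6.09 and 3.86.

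Taken by size alone, the genes highest over cDC1 cells were Klk1, Cox6a2, Iglc3, Ptprf, Cd300c, Ppm1e, Gm21762, Ly6d, Paqr5 and A530030E21Rik, and those highest over cDC2 cells were Gm21762, Eldr, Sct, D13Ertd608e, Klk1, Zc3h12b, Sema4b, Pir, Adam11 and A530030E21Rik. Gm21762, a predicted gene, was at 900, 629 and 849 CPM, with 1 count in cDC1 cells, 0 in cDC2 cells (at least 153-fold higher in the Siglech gate) and 0.711 CPM in T cells, and 75 of 82 cells had a count. Sct (secretin), a gut hormone gene, was at 136, 152 and 264 CPM, with 0 counts in cDC2 cells. In cDC1 cells it was at 97.6, 763 and 30.8 CPM, a range that spans the Siglech gate.

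The genes lowest against cDC1 cells were Naaa, Cd9, Lrrk2, Tlr3, Mctp1, Gm6377, Cd83, Wdfy4, Cst3 and Batf3. Naaa, a lysosomal amidase, was at 16.4, 30.4 and 37.8 CPM, against 1225 in cDC1 cells, and Wdfy4, needed for cross-presentation, was at 57.6, 81.1 and 94.4 against 1038. Tlr3, the receptor for double-stranded RNA, was at 8.22, 0 and 18.9 against 191. The genes lowest against cDC2 cells were Ccl9, Mcemp1, Ifitm6, Emilin2, Wfdc17, Ccl6, Cxcl10, AA467197, Cdkn1a and Osm, among them chemokines and genes of monocytes. Of 1986 genes tested in both comparisons, 424 were higher in both (77.5% of the calls against cDC1 and 67.2% of those against cDC2) and 250 lower in both (57.9% and 44.3%). The comparisons share the cells of the Siglech gate, so this overlap is a description.

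For values by age the 82 cells were too few at 12 and 20 months, and the 240 cells of the wider gate were used. Genes of the lineage differed among themselves in how close the ages lay. Tcf4 was at 2803, 2746 and 2928 CPM, Runx2 at 859, 927 and 864, Bst2 at 865, 1004 and 960 and Ccr9 at 1038, 1126 and 1124. Other members lay further apart: Ly6d was at 643, 712 and 410 CPM (ratio of the 20-month to the 4-month level with an interval of 0.532 to 0.761), Cox6a2 at 406, 255 and 355 (ratio of the 12-month level 0.508 to 0.772) and Klk1 at 553, 723 and 984. Among 3878 genes with a mean of at least 50 CPM, 15 were at least 2-fold higher (0.387%) and 18 at least 2-fold lower (0.464%) at 12 than at 4 months, and 20 (0.516%) and 22 (0.567%) at 20 than at 4 months, on the log2(CPM + 10) scale. None of the lineage factors, surface genes or sensing genes listed passed that fold at either age. Both comparisons share the 4-month library.

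Genes named for the firmest distance between 20 and 4 months, with 12 months between, included several that were low in T cells and C1q-high cells. Cacna1e, a voltage-gated calcium channel, was at 121 CPM at 4 months (94.8 to 152), 194 at 12 months and 324 at 20 months (273 to 381), with 2.05 to 2.23 in T cells. Klk1 was at 553 (496 to 615), 723 and 984 (895 to 1080) CPM. A530030E21Rik was at 58.8, 71.6 and 135 CPM, and Nav2, a neuron navigator, at 35.9, 105 and 129. In T cells and in C1q-high cells these 4 genes stood at 14.0 CPM or less at every age. Ratios by age in the cDC gates are not given, so whether these differences are particular to the Siglech cells was not tested. At 12 months 1 cell held 89 of the 414 Klk1 counts. The others named as higher were AI506816, Hmgcs1, Ggnbp2, Ddah1, Tomm34 and Hsd17b11, of which Hsd17b11 was also higher at 20 months in T cells (3.14, 2.85 and 90.2 CPM) and C1q-high cells.

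On the lower side were Ifi205, an interferon-inducible gene, at 473 (420 to 531), 311 and 233 (190 to 282) CPM (27.6% of the 20-month counts in 1 cell), Sdc3, a syndecan, at 340, 258 and 180, Nedd9, an adhesion scaffold, at 207, 171 and 99.7, Sgcb at 109, 83.8 and 39.9 and Sqstm1, the autophagy receptor p62, at 134, 94.3 and 55.4. Ppfia2 was at 224, 71.6 and 6.65 CPM (87.8% of the 12-month counts in 1 cell), but in T cells it was at 228, 24.4 and 45.1. The genes of cytotoxic cells Klrk1, Gzma and Klra8 and S100a11 were named too. Gzma was at 186, 103 and 66.5 CPM, beside 471, 267 and 152 in T cells, and Klrk1 at 340, 251 and 151, beside 868, 794 and 688. The part of RNA from T cells in these values was not tested.

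The interferon response list was lower at both older ages. Over its 27 measured genes the median log2 ratio against the 4-month level was -0.28 in both older libraries, with 5 of the 27 above 0 each time, beside medians of 0.02 and -0.01 over all 3878 genes. T cells had medians of -0.19 and -0.22 for the same genes and C1q-high cells -0.17 and -0.22, so a shift of this sign was not limited to the Siglech cells. Isg15 was at 824, 546 and 508 CPM and Ifih1, an RNA sensor, at 220, 162 and 137. Of the list, Mx2 alone was past the 2-fold threshold, at 20 months (94.7, 59.4 and 42.1 CPM, from 58, 34 and 19 counts). Under all 14 other settings the list medians stayed below 0, between -0.40 and -0.20.

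The MHC class II list stood out at 12 months, where its 11 measured genes had a median log2 ratio of -1.06 with 6 past the 2-fold threshold. H2-Ab1 was at 2909, 1021 and 3356 CPM and H2-DMb2, a chain of the peptide loader H2-DM, at 264, 19.2 and 228. These values rested on few cells. H2-Aa, H2-Ab1, H2-Eb1 and Cd74 together took a median of 0.432%, 0.530% and 0.786% of the counts of a cell, but 19 cells had 3% or more, and these were 7, 1 and 11 cells by age. They held 63.6%, 10.2% and 69.8% of the MHC class II counts. Without them the 4 genes came to 6636, 6452 and 7399 CPM and the list median at 12 months was -0.06. The limit of 3% was set after the values were seen.

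The 19 cells differed from the other 221 in more than MHC class II. Siglech was at 338 CPM in them against 1811, Tcf4 at 588 against 3156, Irf8 at 74.1 against 950 and Runx2 at 37.1 against 1013. Ccr9 was found in 2 of the 19 cells and in 207 of the 221. Cst3, high in conventional dendritic cells, was at 1797 against 949, while Xcr1 and Cd79a were at 0. Of the 19, 12 had over 1.5 times the median total of their library (14 of the other 221 did), none was among the cells with the highest Scrublet scores (36 of the 221 were), and 2 met the original rule. Whether they are doublets was not tested further, and the comparison of these 19 cells with the rest is a description of cells picked by their counts.

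**Figure D5:**
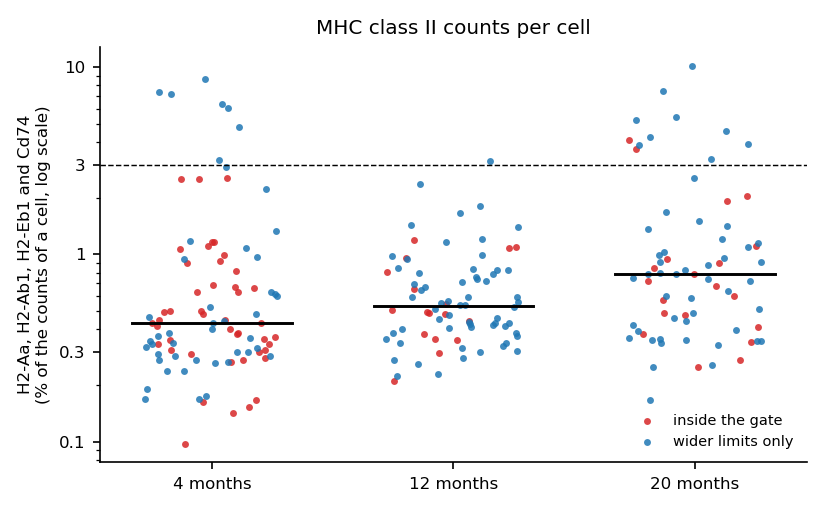
Share of the counts of each of the 240 cells that came from H2-Aa, H2-Ab1, H2-Eb1 and Cd74, by age (log axis, black bars are medians, red cells meet the rule). The dashed line marks 3%, above which lie 7, 1 and 11 cells at 4, 12 and 20 months.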

How the data were processed

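The authors deposited whole-number counts per gene and cell for 3 libraries, with 55401 genes listed. Per the submitters' processing notes, STAR 2.7.10a and the build GRCm38 were used. The counting program, cell calling and strand setting are not given in the sources used here. All deposited cells were kept.

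Members and gene lists were chosen with earlier results of these data known. The cDC1 gate took Xcr1 and Clec9a of at least 2, and the cDC2 gate Cd209a of at least 2, each with the other at 0. Sums per library were tested with edgeR 4.0.16 (TMM, filterByExpr, library as block). A run on simulated data gave every gene the same spread and no library or age effect, so it does not show how the test performs here. DESeq2 1.42.0, Scrublet through scanpy 1.11.5, thinning to 3000 counts and leaving out each library served as alternatives. Ages were compared as log2(CPM + 10) without a test.

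Several choices departed from the plan. Age values came from the wider gate, since 2 libraries held under 30 cells of the gate. The T cell gate required 15 Cd3 counts in place of 3. Genes named by age came from the wider gate too. Beside them stand ratios in T cells and C1q-high cells, without the planned ratios in the cDC1 and cDC2 gates. Of 306 listed symbols 305 were matched. Genes named by size were the 10 called genes of the largest fold change each way, with at least 50 CPM in the higher gate and 1 direction in all libraries, and by age the 10 each way whose 20-month ratio interval lay farthest from 1, with the 12-month level between and no cell holding over 20% of the counts in the higher library. Some listed genes are not reported here.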

Additional observations from a re-analysis of the deposited data

How the results depend on the processing

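With 45, 17 and 20 cells, a level of about 10 CPM in the 12-month or the 20-month library stands for a single count. At 4 months, where the gate held 243230 counts, a single count stands for a lower level. For the share of cells, 16 of 20 values under other settings stayed within the interval of the value reported. The others were -0.330 points at 12 months with at least 1 Siglech count, -0.0488 points at both ages with stricter limits (8, 1 and 1 cells left) and -0.0865 points at 12 months with no Cd3 or NK limit.

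Genes at least 2-fold higher at 12 months numbered 23 without cells above 1.5 times the median total, 9 with no Cd3 or NK limit, 25 and 9 with pseudocounts of 1 and 50 CPM, and 70 and 4 at a mean level of at least 20 and 100 CPM. Genes lower at 12 months numbered 10 with a pseudocount of 50, and 52 and 5 at levels of 20 and 100. At 20 months the higher genes numbered 34 and 6 with pseudocounts of 1 and 50, 81 and 5 at levels of 20 and 100, and 32 without the cells rich in MHC class II. The lower genes numbered 46 and 8, 83 and 4, and 46 in the same order, and 36 with at least 3 Siglech counts. The MHC class II median at 12 months turned to 0.00183 without cells above 1.5 times the median total, a setting that removes 12 of the 19 cells rich in MHC class II. Across all 26 list medians by age, 59 of 364 values under other settings had the opposite sign, in 18 medians; apart from MHC class II at 12 months these medians were at most 0.18 in size, so their direction is not established. The 8 medians that kept their sign throughout include both of the interferon response.

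The wider limits called 1711 genes higher and 1572 lower against cDC1 cells, and 1895 and 1811 against cDC2 cells, with more genes tested. DESeq2 called 277 and 164, and 386 and 223. Stricter limits called 10 and 8 against cDC2 cells, with 87 genes tested. Leaving out each library in turn gave 418 to 546 higher and 283 to 395 lower against cDC1 cells, and 470 to 858 higher and 323 to 672 lower against cDC2 cells, the lowest of each without the 4-month library. The library block pairs gates of the same library. Without the replicate block the counts were 528 and 396 against cDC1 cells and 604 and 501 against cDC2 cells. All 596 values of the genes named by size kept their direction and their call. These genes were picked from the same cells as called genes with the largest fold changes. Many of the higher ones had few or no counts in a cDC gate and could hardly change direction, so this is a description. Stricter limits were not run against cDC1 cells, where a gate had no cell left, or by age, where under 30 cells were left.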
